A study of Canis lupus familiaris with 21 samples.

Results

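The 150 spots described here had the lowest log2 ratios to control in all 7 transcription-factor lines of a two-colour array series on MDCK-II cells, an epithelial cell line from dog kidney. They were chosen from a deposited table of ratios, the value table, among 30183 spots that passed a filter on brightness, of 42034 spots in all that were no controls. For each spot the 3 columns of each line were averaged, the highest of the 7 line means was taken, and the 150 spots with the lowest such value were kept. These ratios therefore chose the spots, and their size in the value table is given as a description without a test.

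Each of 21 arrays held, per the labels, RNA of a line in the Cy5 channel and RNA of control cells in the Cy3 channel. The lines were MDCK-II cells overexpressing E47, Snail1, Snail2, Twist1, Twist2, Zeb1 or Zeb2, with 3 arrays each, called biological replicates. The control was MDCK-II carrying an empty pLKO vector, and it was common to all comparisons. Cells were selected with G418 or puromycin and single clones were isolated, but the labels give neither the drug used for each line nor the clone or culture behind each array. P-values therefore measure the spread between these arrays, which may be technical. The labels name no dye swap, so a spot that responds less to Cy5 and a spot whose RNA was lost in the line cannot be told apart, and the same holds for a spot that was high in this control RNA.

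The 7 factors are DNA-binding regulators of epithelial to mesenchymal transition (EMT), the process by which polarised epithelia give up their cell contacts and turn migratory. Snail1, Snail2, Zeb1 and Zeb2 are zinc finger proteins, and E47, Twist1 and Twist2 are basic helix-loop-helix proteins. Members of both families bind E-box motifs, and several are known to repress the E-cadherin gene directly. Genes of epithelial junctions are the classical group that is lowered in this transition. Whether any of the 150 spots reports on such a gene was not examined, because the array design named in the scanner files' grid differs from the design of the slides. The spots are therefore given by probe ID and by row and column on the array, without gene names, and neither the overexpressed factors nor the markers of kidney epithelium could be checked.

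The samples recorded for the scanner files conflicted with the columns of the value table. Of the 21 scanner files, 15 held the ratios of a column at 97.7% to 97.8% of tested spots, within 0.0001 on the log10 scale, and in each case it was the column of another sample. One further file lay close to a column, and 5 files equalled none. These 5 were the 3 arrays recorded for Snail1 and the second and the third arrays recorded for Zeb2. Conversely, 6 columns had no equal file, namely all 3 of Snail1, the third of Twist2, and the second and the third of Zeb2. In some matched pairs the line differed as well. The 3 E47 columns equalled files recorded for Twist1 or Snail2, and the 3 Twist1 columns files recorded for E47 or Twist2. The first Snail2 column equalled a file recorded for E47, the first Zeb1 column one recorded for Zeb2, and the first Zeb2 column one recorded for Zeb1. Lines of the value table are named by its columns, and differences between them hold only under that naming. The ratios of the 5 unmatched arrays did not enter the choice of spots, although their background marks were part of the brightness filter, and they are described separately. Among them, the first and second arrays recorded for Snail1 and the second recorded for Zeb2 stood apart from all other arrays in the level of the 150 spots, as given with their values below. Over all arrays, 68.9% to 91.8% of tested spots were well above background in the control channel and 47.8% to 91.5% in the line channel.

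In the value table the 150 spots were low in every line, with medians between -3.03 and -4.14 on the log2 scale of line over control. As tabulated, the medians were lowest in Snail2 and Twist2 and highest in Zeb1, but many ratios rest on a line signal that was not above background, as given below, so this order is not one of measured depths. In RNA of whole cultures, fewer cells with a transcript and less of it per cell cannot be told apart. The median ratio of the 150 spots was -3.78, -4.35 and -4.19 in the 3 Snail2 columns, which gave a median line mean of -4.14, or 17.6-fold below control. In Twist2 the columns had medians of -4.11, -4.14 and -4.08, and the median line mean was -4.11, or 17.3-fold. In Snail1 they were -3.73, -3.80 and -3.77, and the median line mean was -3.78, or 13.8-fold. The first Snail2 column was shallower than its other two, while the columns of Twist2 and of Snail1 lay close together.

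The other 4 lines had less low medians in the table. E47 had column medians of -3.58, -3.51 and -3.49 and a median line mean of -3.51, or 11.4-fold. Twist1 had column medians of -4.01, -3.43 and -3.29 and a median line mean of -3.49, with its first column lower than the other two. No fold is given for Twist1, since 91 of its 150 spots had no line signal well above background on any array. For Snail1, Twist2 and Zeb2 such spots were not counted, so their folds are not to be read as better measured. Zeb2 had column medians of -3.54, -3.12 and -3.28 and a median line mean of -3.30, or 9.87-fold. Zeb1 had the most even columns and the least low medians, at -3.01, -3.0 and -3.0, with a median line mean of -3.03, or 8.16-fold. The median of all tested spots lay between -0.16 and 0.04 in the 7 lines.

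**Figure D1:**
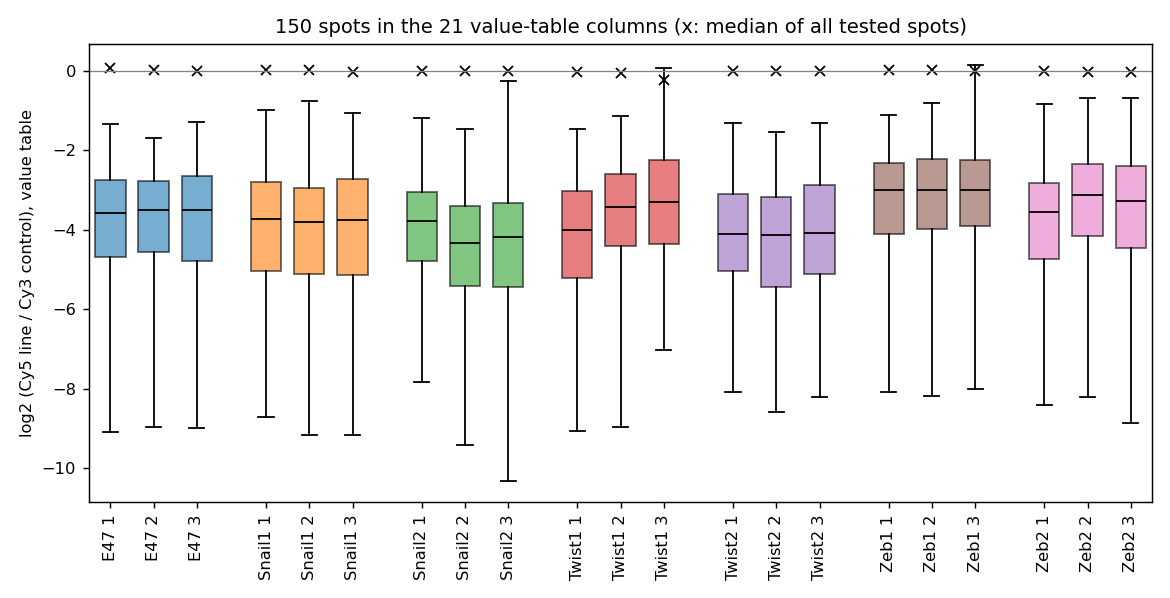
Log2 ratio of line (Cy5) over control (Cy3) of the 150 spots in each of the 21 value-table columns, coloured by line; boxes span the quartiles, whiskers reach the lowest and highest spot, the line in the box is the median and crosses mark the median of all tested spots. All column medians of the 150 spots lie between -4.35 and -3.0, and the whisker passes 0 only in the third column of Twist1 and Zeb1.

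The rule keeps spots with low means in every line, so the counts of low values that follow are largely fixed by it and are a description. Of the 3150 values of 150 spots in 21 columns, 14 were not under -1 and 2 were not under 0. There were 139 spots under -1 in all 21 columns and 148 under 0 in all of them. The number of spots with a tabulated line mean at least 8-fold below control, unmeasured line signals included, ran from 75 in Zeb1 to 121 in Snail2, with 98 in Twist1, 102 in E47 and 104 in Snail1. By the highest of the 7 means, 99 spots were under -2, 49 under -3 and 19 under -4.

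By limma, a spot was called lower where its Benjamini-Hochberg adjusted p over all tested spots was under 0.05 and its line mean was -1 or lower. All 150 spots were called lower in each line, which the choice of spots fixes, so nothing is read from it. Among all tested spots the share called lower was 23.9% in E47, 4.62% in Snail1, 23.0% in Snail2, 21% in Twist1, 25% in Twist2, 5.1% in Zeb1 and 15.6% in Zeb2. In all 7 lines together, 269 of all tested spots, or 0.891%, were called lower. Line means under -1 in all 7 lines were found for 278 tested spots, and means over 1 in all 7 for 482. The mirror image of the rule, the highest value of the lowest line mean, reached 5.60 and had fallen to 1.79 at its spot number 150.

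The same depth stood out to a different degree in different lines, because the lines differed in the spread of all tested spots. The standard deviation of the line mean over all tested spots was 0.741 in Zeb1 and 0.87 in Snail1, and 1.53 in Snail2, 1.59 in E47 and 1.61 in Twist2. Measured in these units, the median of the 150 spots lay 4.35 below 0 in Snail1 and 4.09 in Zeb1, but 2.21 in E47 and 2.56 in Twist2. Accordingly, 96 of the 150 were among the 150 lowest spots of Zeb1 taken alone, 89 among those of Zeb2 and 84 among those of Snail1. Only 41 were among the 150 lowest of E47 and 47 among those of Twist2. Thus the spots that were lowest in E47 or Twist2 alone were mostly other spots, while Zeb1's lowest spots were in the majority shared with the 150.

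Zeb1 set the rank of more spots than any other line. It was the line with the highest, least lowered, mean for 58 spots, followed by Twist1 for 30 and E47 for 28. Snail1 held this place for 12, Zeb2 for 10, and Snail2 and Twist2 for 6 each. The line with the deepest mean was Snail1 for 37 spots, E47 for 33, Snail2 for 32 and Twist2 for 26, and Zeb1 for only 3. E47 was thus among the deepest lines for some spots and among the shallowest for others.

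**Figure D2:**
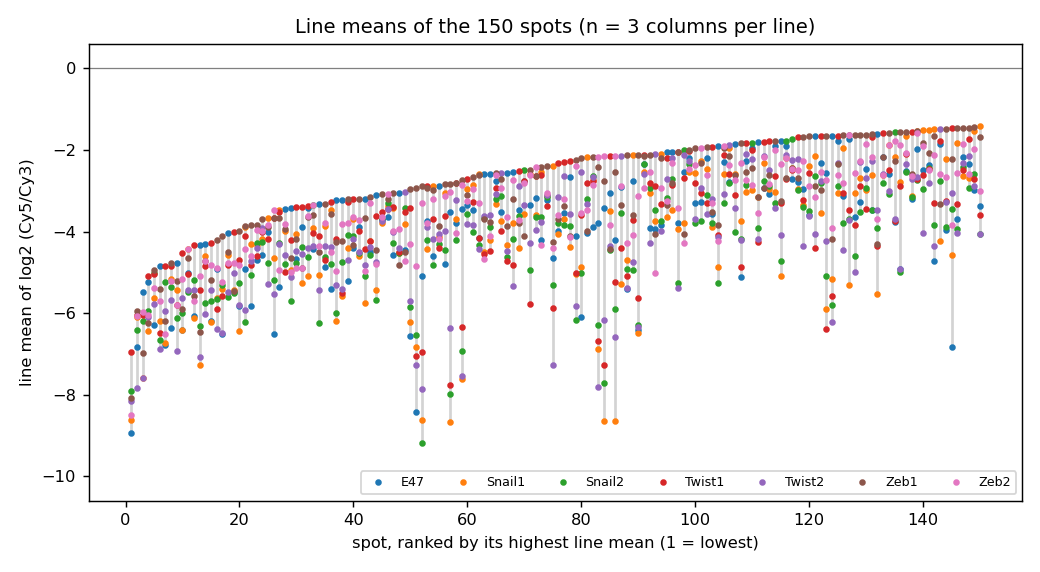
Line means of the log2 ratio to control (n = 3 columns per line) for the 150 spots, ordered by their highest line mean; each dot is a line and the grey bar spans the 7 lines. The highest mean rises from -6.94 at rank 1 to -1.41 at rank 150, and single spots span up to 6.51 log2 units between lines.

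The spot at rank 1 was A_11_P0000017114, at row 231 and column 84 of the array. Its values were -9.09, -8.79 and -8.99 in E47, and -8.57, -8.78 and -8.54 in Snail1. In Snail2 they were -7.31, -7.99 and -8.42, and in Twist2 -7.67, -8.59 and -8.20. In Zeb1 they were -8.08, -8.19 and -8.01, and in Zeb2 -8.41, -8.20 and -8.86. Twist1 was the shallowest and most variable line, with -8.07, -6.73 and -6.03, a mean of -6.94 ± 1.03 (SD, n = 3). Its mean over the 7 lines was -8.17, the lowest of the 150. Its control signal was bright on all 21 arrays, between 2600 and 12900 with a median of 5730, whereas its line channel was well above background on 4 arrays.

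Where the line channel is not above background, a ratio gives only a bound on the loss. Bounds were taken as the control mean over the line mean, with the line set no lower than the dimmest signal well above background on its array. They come from locally subtracted signals after loess and quantile scaling, hold for the arrays whose ratios equal the columns of E47, Snail2, Twist1 or Zeb1, and may hold dye bias, since no dyes were swapped. For A_11_P0000017114 the control was at least 25.4-fold brighter than E47, at least 16.1-fold brighter than Zeb1 and at least 9.25-fold brighter than Twist1. In Snail2, 1 of 3 arrays measured its line channel. Of the 150 spots, 44 had no line signal well above background on any of the 3 arrays of E47, 46 of Snail2, 51 of Zeb1 and 91 of Twist1, and for Snail1, Twist2 and Zeb2 this was not counted, since some of their columns equal no file. Among all tested spots the corresponding shares were 11.2%, 16.5%, 11.8% and 25.1%. The fold values of such spots in the value table are therefore not measured depths.

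The spot at rank 2, A_11_P0000028021 (row 422, column 32), was measured in both channels on all 21 arrays, so its depth is not such a bound. Its values were -8.07, -7.91 and -7.52 in Twist2, its deepest line, and -6.87, -6.81 and -6.76 in E47. Snail2 gave -5.45, -6.62 and -7.18, Snail1 -5.97, -6.23 and -6.12, and Twist1 -6.30, -6.15 and -5.68. Zeb1 gave -5.95, -5.98 and -5.92, a mean of -5.95 ± 0.03 (SD, n = 3) that was its highest, and Zeb2 gave -5.03, -6.60 and -6.58. The Twist2 values all lay below those of every other line. Its median control signal of 49200 stood at percentile 97.2 of tested spots of the same array, and its median line signal of 592 at percentile 54.8.

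The next 3 ranks were dimmer in the line channel. A_11_P0000012067 (row 337, column 33) had line means from -7.59 in Twist2 and -7.58 in Snail1 to -5.49 in E47, with a wide spread in Snail2, where the columns gave -6.76, -4.33 and -7.45. A_11_P0000036791 (row 199, column 39) ran from -6.43 ± 0.57 in Snail1 to -5.10 ± 0.78 in Twist1 (SD, n = 3 each). A_11_P0000027294 (row 71, column 8) ran from -6.29 ± 0.25 in E47 to -4.95 ± 0.46 in Zeb1 (SD, n = 3 each). The line channel of these spots was well above background on 8, 4 and 6 of 21 arrays, and the control channel on all 21.

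At the other end, the last spot but one was A_11_P000009066, with a highest line mean of -1.427 in Zeb1, and rank 150 was A_11_P000004743, with -1.412 in Snail1. The first spots left out were A_11_P0000028535, also at -1.412 after rounding, in E47, and A_11_P000009224, at -1.407 in Snail1. A_11_P000004743 lay at -4.07 in Snail2 and -4.06 in Twist2, so its rank rested on the Snail1 columns, with values of -0.98, -2.21 and -1.05. The boundary thus divides spots that hardly differ.

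The depth in the table varied between lines for most spots, which was not tested. The range between a spot's highest and lowest line mean had a median of 1.90 and ran from 0.54 to 6.51. It was under 1 for 12 spots, over 2 for 65 and over 3 for 28. The narrowest was A_11_P00000461 (row 331, column 72), with means between -2.55 in Snail1 and -2.01 in Zeb1. Next came A_11_P0000013415 (row 231, column 33), between -3.64 in E47 and -3.08 in Zeb2, and A_11_P0000026227 (row 130, column 56), between -3.78 in Snail1 and -3.09 in Zeb1. Of these, A_11_P0000026227 had both channels above background on all 21 arrays, whereas the line channel of A_11_P00000461 passed on 3.

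The 3 spots with the widest range were deep in Snail1 and Snail2 and shallow in Zeb1 and Zeb2. A_11_P0000031650 (row 256, column 71) gave -8.69, -8.24 and -9.03 in Snail1, -6.62, -7.74 and -8.79 in Snail2, and -7.37, -7.45 and -7.03 in Twist1. In Twist2 it gave -5.76, -6.36 and -6.40, in E47 -3.33, -3.74 and -3.16, and in Zeb1 -2.55, -3.10 and -2.60. The Zeb2 columns gave -4.80, -0.90 and -0.74, so that its first column lay apart from the others. The Snail1, Snail2, Twist1 and Twist2 values of this spot did not overlap those of E47, Zeb1 and Zeb2.

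A_11_P000005491 (row 226, column 15) ran from -8.64 ± 0.56 in Snail1 through -4.20 ± 0.06 in E47 and -2.55 ± 0.32 in Zeb1 to -2.14 ± 1.06 in Zeb2 (SD, n = 3 each). A_11_P0000016641 (row 249, column 80) reached -9.19 ± 1.26 in Snail2, the deepest line mean of any of the 150, and -8.63 ± 0.44 in Snail1, against -2.89 ± 0.44 in Zeb1 (SD, n = 3 each). Its Twist1 columns gave -9.05, -8.95 and -2.83, so the third column, which equals a file recorded for Twist2, stood apart. Its Zeb2 columns gave -6.24, -1.73 and -1.90, and the first of them equals a file recorded for Zeb1. In all 3 spots the first Zeb2 column was the deepest of that line. Snail1 was the deepest line for the first pair and the second deepest for the last, and Zeb1 or Zeb2 the shallowest for all 3.

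The columns of a line agreed best in E47 and least in Twist1 and Zeb2. The median standard deviation between the 3 columns over the 150 spots was 0.20 in E47, 0.27 in Snail1, 0.28 in Zeb1, 0.35 in Twist2, 0.42 in Snail2, 0.53 in Zeb2 and 0.61 in Twist1. Over all tested spots these values ran from 0.20 in E47 to 0.47 in Twist1 and Zeb2. A standard deviation over 1 was found for 29 spots in Zeb2, 15 in Twist1, 13 in Snail2, 9 in Snail1, 4 each in Twist2 and Zeb1, and 0 in E47. The second and the third Zeb2 columns equal no scanner file, whereas the first equals one recorded for Zeb1. The first and second Twist1 columns equal files recorded for E47, and the third equals one recorded for Twist2. The E47 columns, which agreed best, also equal files recorded for different lines, Twist1 and Snail2. Whether the spread within a line follows these records was not tested.

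Brightness showed that these were spots with a middling to bright control signal and a dim line signal. On the 21 arrays the median control signal of the 150 spots ran from 638 to 2790 in the scanner's processed units, where the median of all tested spots ran from 195 to 852. As a percentile among tested spots of the same array, the median control signal lay between 66.5 and 70.5 on all 21 arrays. Control brightness is part of the ratio that chose the spots, so this is a description. Between 140 and 150 of the spots were well above background in the control channel on each array, and 139 were so on all 21. No spot was saturated there.

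The line channel was dim on the 16 arrays that equal or lie close to a value-table column. Its median ran from 38.9 to 134 there, at percentiles from 15.3 to 30.2, and 32 to 99 of the 150 spots were well above background, against 47.8% to 86.8% of all tested spots. The array with 638 as its control median, recorded as the third of Twist2, was the dimmest in both channels. Over all 21 arrays, 25 spots were well above background in the line channel on every array and 72 on no more than 10.

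**Figure D3:**
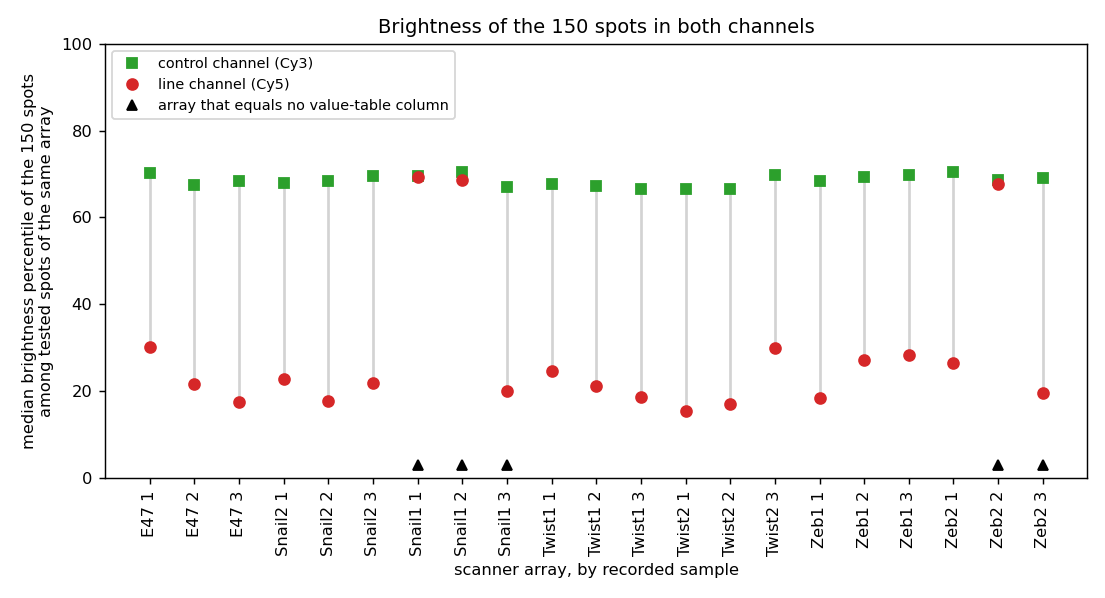
Median brightness percentile of the 150 spots among tested spots of the same array, for the control channel (Cy3, squares) and the line channel (Cy5, circles) of the 21 scanner arrays under their recorded samples; triangles mark the 5 arrays that equal no value-table column. The control channel stays between 66.5 and 70.5, and the line channel lies at 67.7 to 69.3 on the 3 arrays that stand apart and at 30.2 or lower on all others.

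Among the 150 spots, control brightness varied widely from spot to spot and little from array to array. A spot's median control percentile over the arrays ran from 25.3 to 97.8 with a median of 67.9. Its span over the 21 arrays had a median of 8.95 percentile points, against 17.9 for all tested spots. The control channel of these spots thus kept its place on arrays of different lines. The comparison was not matched for control brightness. The control channel was well above background on all 21 arrays for 139 of the 150, while tested spots needed either channel on only 3. The smaller span is therefore not read as particular to the 150.

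Brighter spots were read as more deeply lowered. The 28 spots with a control percentile from 25 to 50 had a median mean ratio of -2.66, the 59 from 50 to 75 had -3.82, and the 63 above 75 had -4.05. Over the 150 spots, Pearson's r between log2 control signal and the mean of the 7 line means was -0.422 (Spearman's rho -0.435), and r with the range between lines was 0.411 (rho 0.371). The points share the control channel, which enters both measures. The line channel of the 3 brightness groups was well above background on a median of 4, 8 and 19 arrays, so the shallow spots were also those with the least line signal to measure.

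The extremes of control brightness show this. A_11_P0000013266 (row 212, column 60), with a median control signal of 105, had line means from -2.99 in Snail2 to -1.69 in Twist1, and its line channel passed on 3 arrays. Its bounds were at least 1.32-fold in E47, 1.33-fold in Snail2, 1.23-fold in Twist1 and 1.30-fold in Zeb1. A_11_P0000032798 (row 354, column 62), with a median of 122, had means from -2.93 in Snail2 to -1.46 in Zeb1. A_11_P0000030402 (row 404, column 2), with a median of 51600, ran from -6.22 ± 0.16 in Twist2 to -1.65 ± 0.29 in E47 (SD, n = 3 each), and was measured in both channels on all 21 arrays. Its 3 E47 values of -1.54, -1.98 and -1.42 lay above those of every other column.

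The brightest control signal, a median of 64000, belonged to A_11_P0000028635 (row 288, column 62), for which the value table and the scanner files did not hold the same ratios. It was the only one of the 150 spots that differed in all 15 matched pairs of column and file, and all the other spots were equal within the tolerance in each pair. In the table its Zeb1 values were -3.91, -3.83 and -3.86, whereas the matched files gave 0.12, -0.56 and -0.34 for this spot. In Twist1 the table held -5.23, -3.89 and -4.12 and the files -1.24, -1.5 and -1.39. In E47 they were nearer, at -2.93, -2.84 and -2.86 in the table and -3.33, -2.62 and -3.11 in the files. By its scanner ratios this spot was not low in Zeb1, and its place among the 150 rests on the table.

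The 5 arrays that equal no column gave values the choice did not use, and they divided. On the third array recorded for Snail1 the median ratio of the 150 spots was -3.26, with 141 under -1 and none over 1. On the third array recorded for Zeb2 it was -3.79, with 147 under -1 and none over 1. Of all tested spots, 12.9% and 9.12% were under -1 on these arrays. The line channel there had medians of 85 and 118 against 928 and 1950 in the control, as on the 16 matched arrays.

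On the other 3 the loss was not seen for most of the spots. The median ratio was -0.08 on the first and -0.10 on the second array recorded for Snail1, and 0.00 on the second recorded for Zeb2. On these arrays 51, 51 and 52 of the 150 were under -1, where 25.3%, 25.1% and 24.2% of all tested spots were, and 40, 39 and 36 were over 1. The share of all tested spots over 1 was not counted. The median line signal was 2110, 1790 and 2630 and the median control signal 2120, 2030 and 2790. The control channel of the 150 spots thus held its usual percentile, at 68.7 to 70.5, and the line channel was as bright as the control.

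The number of these arrays on which a spot was under -1 varied among the 150. None was under -1 on fewer than 2 of the 5 arrays, 96 were so on 2, 6 on 3, 8 on 4 and 40 on all 5. Such counts were not made over all tested spots, so this division is not read as particular to the 150. Across the 150 spots, the ratios of the 3 arrays that stand apart correlated with each other at r = 0.965 to 0.982, and with the third arrays of Snail1 and Zeb2 at r = -0.378 to -0.327. The latter pair correlated at r = 0.823. Over all tested spots these relations differed: the 3 arrays correlated at r = 0.928 to 0.956 with each other, at -0.135 to -0.117 with the third array of Snail1 and at 0.206 to 0.216 with the third of Zeb2, and the latter pair at 0.528. These arrays share the control RNA and dye orientation, and the spots were chosen for low ratios elsewhere. The mean of the 7 line means correlated with the ratio at r = 0.759 on the third Snail1 array and 0.808 on the third Zeb2 array, and at r = -0.175 to -0.0955 on the other 3. All these values of r are descriptions over spots.

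**Figure D4:**
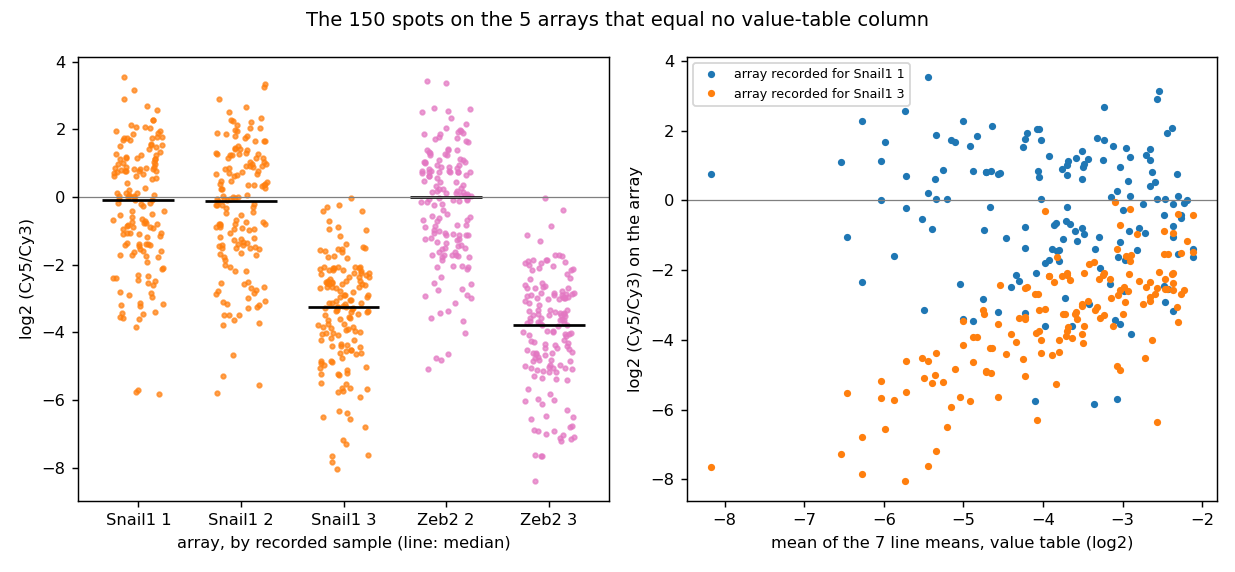
Left, log2 ratio of line over control of the 150 spots on the 5 scanner arrays that equal no value-table column, under their recorded samples, with the median as a line. Right, the ratio on the first and the third arrays recorded for Snail1 against the mean of the 7 line means of the value table; the medians are -0.08 and -3.26, and only the third array follows the table (r = 0.759 against -0.121).

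The spots that stayed lowest over the 5 arrays were A_11_P0000010151, A_11_P0000039034 and A_11_P0000027440. A_11_P0000010151 (row 4, column 24) gave -5.83, -5.29 and -1.76 on the arrays recorded for Snail1 and -5.07 and -3.59 on those of Zeb2. A_11_P0000039034 (row 304, column 19) gave -2.34, -2.57 and -7.84, and then -1.76 and -6.50. A_11_P0000027440 (row 336, column 8) gave -5.76, -5.55 and -2.67, and then -4.75 and -1.90. The first and last were thus lower on the 3 arrays that stand apart, and A_11_P0000039034 on the other pair, so the same mean came from opposite patterns.

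The spots highest over these arrays were the dim A_11_P0000013266, A_11_P0000036781 (row 365, column 1) and A_11_P0000020567 (row 403, column 24). A_11_P0000013266 gave 3.15, 3.35 and -2.06 on the arrays recorded for Snail1 and 2.54 and -2.93 on those of Zeb2. A_11_P0000036781 gave 2.68, 2.52 and -2.08, and then 2.34 and -2.89. A_11_P0000020567 gave 1.51, 1.64 and -1.60, and then 1.23 and -1.73. Each was above control on the 3 arrays that stand apart and below it on the other pair. The spot at rank 1, A_11_P0000017114, did the same, with 0.76, 0.27 and -7.66 and then 0.74 and -8.38, and its line signal was 15900, 9430, 18.8, 21500 and 25.3 in that order.

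Grouped by recorded line, these 5 arrays gave limma no call. None of the 150 spots was called lower in Snail1 (n = 3) or Zeb2 (n = 2), as was the case for 0.0% of all tested spots in both. The median mean was -1.25 in Snail1, with a median standard error of 0.96, and -2.12 in Zeb2, with 1.19. The smallest adjusted p of the 150 was 0.194 and 0.273 (limma, Benjamini-Hochberg over all tested spots). At an unadjusted limma p under 0.05 with a mean of -1 or lower there were 45 spots in Snail1 and 46 in Zeb2, against 8.35% and 2.96% of all tested spots. Both groups mix arrays that disagree on most of the spots, and without the third array recorded for Snail1 the median mean there was -0.10, while without the second recorded for Zeb2 the median mean in that line was -3.82.

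For comparison, the 150 lowest spots of each single line were read on the same arrays, leaving out those among the 150 described here. The 109 such spots of E47 had medians of -5.43, -5.33 and -4.69 on the 3 arrays that stand apart, and of 0.09 and -0.64 on the third arrays of Snail1 and Zeb2. Those of Snail2, Twist1 and Twist2 were likewise lower on the 3 arrays, at -5.33 to -3.03, than on the third arrays, at -1.51 to -0.25. The 61 spots of Zeb2 had -2.75, -2.53 and -2.65 on the 3 arrays and -1.19 and -1.23 on the third arrays. The 66 spots of Snail1 went the other way, with 0.79, 0.79 and 0.76 on the 3 arrays and -3.46 and -3.74 on the third arrays, and so did the 54 of Zeb1, with 0.50, 0.45 and 0.60 against -2.59 and -2.11. The 150 described here, at -0.10 to 0.00 and at -3.26 and -3.79, were lower on the third arrays, as were the spots of Snail1 and Zeb1. Which cells the 3 arrays hold is not settled by the sources used here.

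Over the 21 scanner arrays the loss was less complete than in the columns of the table. Of the 150 spots, 37 were under -1 and 71 under 0 on all 21 scanner arrays, counts that do not depend on the recorded samples. The arrays that stand apart, with 51, 51 and 52 spots under -1, limit the first count. The same counts were not made over all tested spots, so nothing is read from them about the 150 spots in particular. With the scanner's processed ratios under their recorded samples, limma called 58 of the 150 lower in Snail1 and 73 in Zeb2, with 118 in Zeb1 and at least 145 in each of the other lines. Of the 21 arrays, 15 hold the ratios of columns that chose the spots, grouped anew. The high counts are therefore largely fixed by the choice, and nothing is read from them. The arrays recorded for Zeb1 nevertheless had 147, 148 and 148 of the spots under -1. The fit takes a common spread per spot over all lines, so arrays that disagree enter the error of every line. Of all tested spots, 12.3% were called lower in Snail1, 1.88% in Zeb2, 1.11% in Zeb1 and 16.8% to 22.3% in the other lines by these ratios.

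The choice was also repeated with each line left out in turn, and the 150 spots so chosen were read in that line, whose own columns then had no part in the choice. The control RNA remains common to all lines, so this is no independent control. The line left out is that of the columns. By the file records, the arrays recorded for E47 stayed in as Snail2 and Twist1 columns when the E47 columns were left out. Likewise the first array recorded for Zeb1 stayed in as a Zeb2 column when the Zeb1 columns were left out, and the first recorded for Zeb2 as a Zeb1 column in turn. The first and second arrays recorded for Twist1 and the first recorded for Snail2 stayed in as E47 columns. The third recorded for Twist2 stayed in as a Twist1 column, and the third recorded for Twist1 lay close to a Twist2 column. By the records, then, E47, Snail2, Twist1, Twist2, Zeb1 and Zeb2 were not fully left out. The number called lower by limma was 134 of 150 in E47, 143 in Snail1, 146 in Snail2, 147 in Twist1, 136 in Zeb1 and 148 in both Twist2 and Zeb2. As shares these were 89.3%, 95.3%, 97.3%, 98.0%, 90.7% and 98.7%, beside the 23.9%, 4.62%, 23.0%, 21% and 5.1% of all tested spots in the first 5 lines and 25% and 15.6% in Twist2 and Zeb2. The medians in the line left out were -3.41 in E47, -3.73 in Snail1, -4.14 in Snail2, -3.46 in Twist1, -4.11 in Twist2, -2.93 in Zeb1 and -3.29 in Zeb2.

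E47 and Zeb1 changed the membership most. Without E47, 128 of the original 150 spots were chosen again, and 10 of the 150 chosen were above 0 in E47, up to 4.05. Without Zeb1, 131 were chosen again, and 2 of those chosen were above 0 in Zeb1, up to 0.49. Without Snail1 the number was 134, without Twist1 140, without Zeb2 142, and without Snail2 or Twist2 145. Apart from a single spot at 0.03 in Snail2, no spot chosen on the other 6 lines was above 0 in Snail1, Snail2, Twist1, Twist2 or Zeb2.

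**Figure D5:**
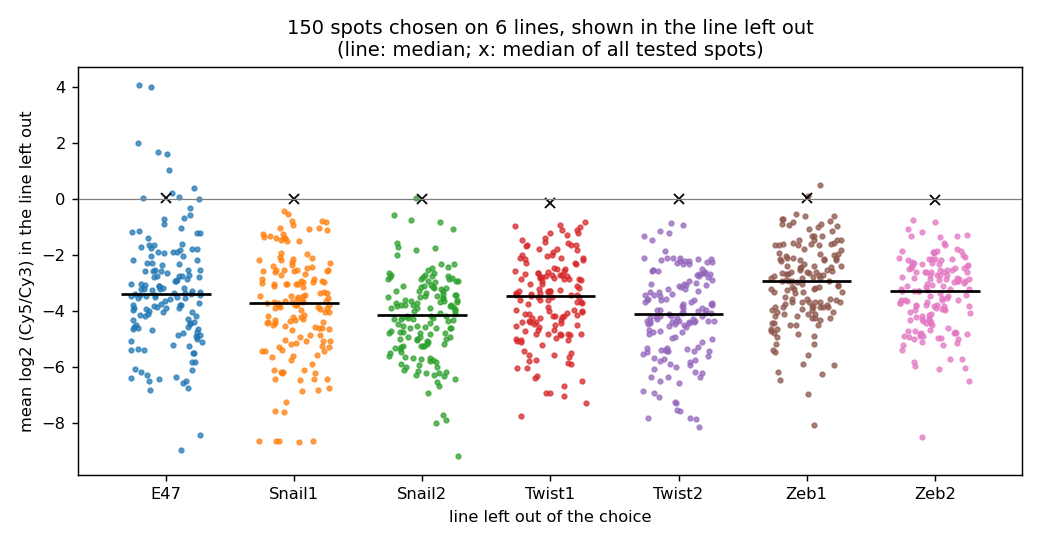
Mean log2 ratio to control (n = 3 columns) in the line left out, for the 150 spots chosen on the other 6 lines; each dot is a spot, the line is the median and the cross the median of all tested spots. Medians lie between -4.14 and -2.93, and spots above 0 appear in E47 (10 spots), Zeb1 (2) and Snail2 (1).

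The spots were spread over the array. By rows in 4 equal bands, 36, 37, 45 and 32 of the 150 lay from first to last, or 24.0%, 24.7%, 30.0% and 21.3%, where all tested spots had 23.9%, 25.6%, 26.1% and 24.4%. Only 4 of the 150 had another of them in a directly neighbouring position. The 793 tested spots next to one of the 150 had a median of the 7-line mean of -0.05, against -0.03 for all tested spots. The low values thus did not extend to the surrounding spots.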

How the data were processed

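Each scanner file was made with Agilent Feature Extraction 10.7.1.1, per the file headers (version 10.0 in the submitters' processing notes). Per the file headers, intensity was stored as processed signals, background-subtracted and dye-normalised within the array by the scanner software, and unsubtracted median signals. The deposited value table and the scanner files' ratio column hold log10 of Cy5 over Cy3, per the file headers and the 15 columns equal to a file; the same scale and direction were assumed for the other 6. Ratios were converted to log2 from the deposited log10 values. No source used here says whether the authors centred the columns. The labels' extraction text speaks of tumours and a pooled Cy3 reference, against the channel's source label, which was followed.

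The spots tested passed the scanner's well-above-background mark, in Cy3 or Cy5, on 3 or more of 21 arrays. One limma fit (3.58.1, R 4.3.3; lmFit, eBayes) over 21 columns gave the 7 line means against 0, so that variation of the control itself is not part of the error, and a second fit covered the 5 unmatched arrays, leaving out outlier-marked spots. The fits were checked on simulated data with the spread within lines of the value table. The groups of the 5 unmatched arrays mix arrays that disagree, so that check does not show what their fit could detect. Replicate numbers of the columns showed no pairing: deviations of same-numbered columns correlated at a mean r of -0.0048, from -0.248 to 0.286. Since the columns conflict with the file records, these numbers cannot show whether the arrays were paired. The 150 spots and the settings were chosen with earlier results of these data known. Spots were named by rule: the lowest by highest mean and by overall mean, the widest and narrowest range, both sides of the boundary, the extremes of control brightness, and the extremes on the unmatched arrays. Alternatives covered centring, scale, filters, variance model, array weights, slide, replicate block, source and background correction of the ratios, and leaving out columns, arrays or lines.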

Additional observations from a re-analysis of the deposited data

How the results depend on the processing

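The source of the ratios mattered most. With processed scanner ratios under recorded samples, 58 of the 150 spots were called lower in Snail1 and 73 in Zeb2, 69 were chosen again, and with the line left out of the choice 71 were called in Snail1 and 35 in Zeb1 (12.3%, 1.88% and 1.11% of all tested spots in Snail1, Zeb2 and Zeb1). With normexp and loess the calls were 7 in Snail1, 76 in Twist1, 90 in Twist2, 5 in Zeb1 and 2 in Zeb2, where 1.57%, 9.48%, 9.45%, 0.0464% and 0.0696% of all tested spots were called, with the line left out 40 in Snail1, 5 in Zeb1 and 15 in Zeb2, and 38 spots were chosen again. The normexp fit put the mean background under -20 in 15 of 42 channels, down to -522, although the 1st percentile of net signal was at least 7.5. Subtraction with an offset of 50 and loess, chosen after seeing the data, gave 45 in Snail1, 98 in Twist2, 95 in Zeb1 and 68 in Zeb2, beside 6.84%, 9.05%, 0.649% and 1.65% of all tested spots, with the line left out 87 in Snail1 and 27 in Zeb1, and 45 spots chosen again. There the median of the 150 spots was -2.55 to -0.86 outside the 3 arrays that stand apart, shallower than in the processed ratios. These settings change samples, background and normalisation together or in part, and the cause was not tested further. Since 15 scanner files hold the ratios of columns that chose the spots, these settings are no independent check of the choice. With columns scaled to a common spread, 109 of the spots were chosen again and 142 were called in E47, beside 15.3% of all tested spots. There 14.2% of all tested spots were called in Snail1 and in Zeb1, where the main fit called 4.62% and 5.1%. Leaving out 1 column, 145 to 150 of the spots were chosen again. The calls in the table were at least 144 in Zeb1, at least 147 in Snail1 and Zeb2 and 150 in the other lines. With the line left out they were 132 to 136 in E47, 137 to 145 in Snail1, 144 to 147 in Snail2, 130 to 138 in Zeb1, at least 143 in Twist1 and Zeb2 and at least 147 in Twist2. The replicate block left 150 calls in every line of the table, and with the line left out it gave 142 in place of 143 in Snail1 and the same counts in the other lines. On the 5 unmatched arrays no setting called any tested spot, so the 0 calls there say nothing about stability. Dim line signal limits the depth that can be read, as the bounds show.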
